A study of Homo sapiens with 4 samples.

Results

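The MYC and MAX network was described through 10 genes, taken as the rows of the deposited count and FPKM tables whose symbol was MYC, MYCN, MYCL, MAX, MXD1, MXD3, MXD4, MXI1, MNT or MGA. All 10 of the 10 symbols were found among 22494 features. The tables held 4 libraries of poly(A)-selected RNA from a pair of established human endometrial cancer lines, HEC-1-A and RL-95-2. Each line had 1 library of cells transfected with mimics of the transfer RNA fragment tRF-20-S998LO9D and 1 library of cells transfected with a negative control of mimics. Both kinds of cells had thus gone through transfection, and no untransfected cells were part of the comparison. The labels name neither the dose of the mimic nor the time after transfection. The question was how gene expression differs between cells given the fragment and cells given the control.

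MYC, MYCN and MYCL are transcription factors that bind DNA only as dimers with MAX, mostly at the E-box sequence, and drive genes of growth, ribosome production and nucleotide synthesis. The MXD proteins, MXI1, MNT and MGA compete for MAX and, as dimers with it, repress many of the same genes through corepressor complexes. The balance of both kinds of MAX partner is known for shifting between proliferating and resting or differentiating cells. In endometrial cancer, MYC is known as a growth-promoting gene.

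Library totals ranged from 33575882 to 46220053 counts. Each of 7 epithelial markers, among them EPCAM and KRT8, reached at least 1 FPKM in every library. Of 6 Müllerian or endometrial markers, 2 did so in each HEC-1-A library and 3 in each RL-95-2 library. PAX8, a factor of the Müllerian lineage, lay between 57.6 and 80.3 FPKM, while the estrogen receptor gene ESR1 reached at most 0.129 FPKM. The progesterone receptor gene PGR was listed at 0 in all 4 libraries. The 7 stromal or mesenchymal markers summed to 2.47 and 4.13 FPKM in the HEC-1-A control and mimic libraries. In those of RL-95-2 these markers summed to 12.4 and 11.2 FPKM, nearly all of it COL1A1. The 6 blood and immune markers together summed to at most 0.536 FPKM. The 4 endothelial markers summed to at most 0.0321 FPKM in HEC-1-A and, nearly all of it CDH5, to 3.13 FPKM in the RL-95-2 control and 6.13 in its mimic library. The 7 epithelial markers summed to 997 FPKM in the RL-95-2 control and 1900 in its mimic library, where KRT8 stood at 171 and 728 FPKM, and between 552 and 626 in HEC-1-A. The part of such marker differences in the results was not tested. Within RL-95-2, 1478 of 13156 genes were at least 2-fold apart, and scaling by the library total moved the median log2 ratio of all genes from 0.01 to 0.13 and the share of higher genes among those apart from 42.7% to 56.1%.

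MYC was the most abundant transcript of the network in every library. FPKM, a level per length of transcript, stood for MYC at 183 with the control and 175 with the mimic in HEC-1-A, then 120.3 and 53.7 in RL-95-2. The RL-95-2 mimic library was the lowest of the 4, and both HEC-1-A libraries lay above both RL-95-2 libraries. MYC counts were 15286 and 20171 in the HEC-1-A control and mimic libraries, and 12156 and 6135 in those of RL-95-2. In RL-95-2, MYC was 2.49-fold lower with the mimic in CPM, which are counts relative to a library size scaled by TMM: a log2 ratio of -1.32 with an exact 95% counting interval of -1.36 to -1.27. In HEC-1-A the MYC log2 ratio was -0.03 (interval -0.07 to -0.00). Such intervals cover counting error only, and with 1 library on each side no spread between cultures was measured. In bulk RNA, fewer cells that express a gene and less of its RNA per cell cannot be told apart.

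MYCL and MYCN, the other MYC genes, were far less abundant. MYCL (chromosome 1, 39895426 to 39902256, GRCh38, GENCODE 29) stood at 1.29 FPKM with the control and 1.47 with the mimic in HEC-1-A, then 5.15 and 2.78 in RL-95-2. Both RL-95-2 libraries therefore exceeded both HEC-1-A libraries, and within RL-95-2 the mimic library was 1.97-fold lower (log2 ratio -0.98, interval -1.16 to -0.80). The HEC-1-A MYCL ratio of 0.29 had an interval of -0.03 to 0.62, with counts of 125 and 207. MYCN (chromosome 2, 15940564 to 15947007) was listed at 0 counts in both HEC-1-A libraries, while RL-95-2 held 29 counts with the control and 49 with the mimic. Its RL-95-2 log2 ratio of 0.40 had an interval of -0.27 to 1.14, so at this depth no difference between mimic and control was detectable. Against a floor of 3 counts per library, MYCN was at least 8.25-fold higher in the RL-95-2 control than in the HEC-1-A control, and at least 15.0-fold higher between the mimic libraries. MYC made up 99.3% and 99.2% of the summed FPKM of the MYC genes in the HEC-1-A control and mimic libraries, and 95.7% and 94.5% in those of RL-95-2.

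MAX, the shared partner (chromosome 14, 65006174 to 65102695), had the smallest ratio of its highest to its lowest FPKM (1.18) among the 9 members with counts in every library. MAX stood at 26.3 FPKM with the control and 23.0 with the mimic in HEC-1-A, then 24.9 and 22.3 in RL-95-2. The libraries of the lines overlapped. In HEC-1-A the MAX log2 ratio of mimic over control was -0.04 (interval -0.13 to 0.05). In RL-95-2 it was -0.35 (interval -0.44 to -0.27), or -0.15 on log2(FPKM + 1), so the size of this difference rested on the scale. The HEC-1-A ratio on log2(FPKM + 1) was -0.19.

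**Figure D1:**
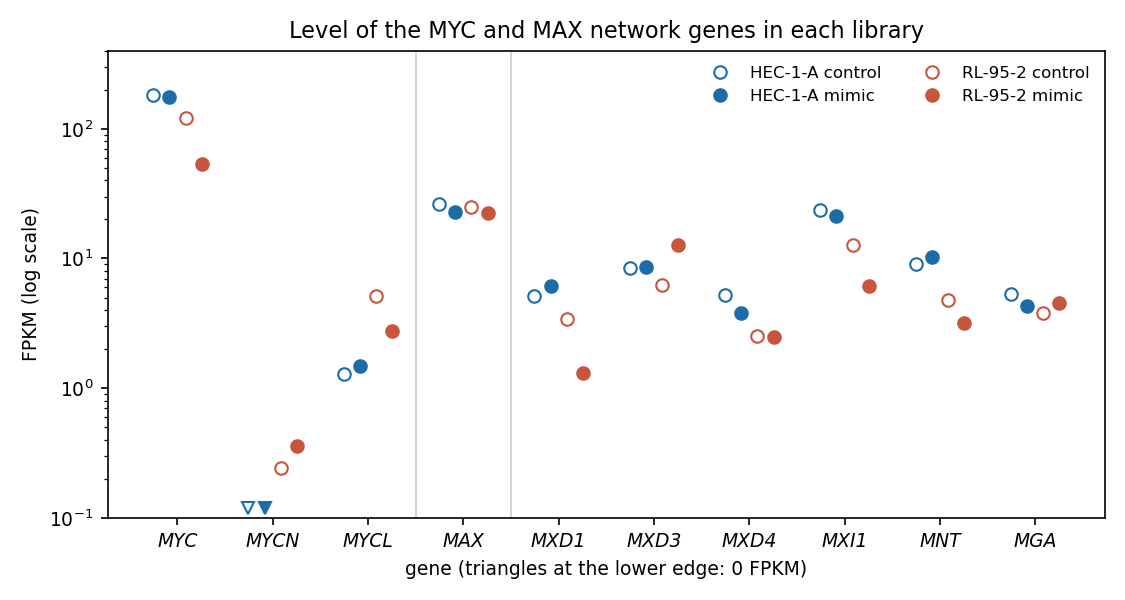
Level of each network gene in FPKM on a log axis, with 1 point per library. Blue points are HEC-1-A and red points RL-95-2, open for control and filled for mimic, and triangles at the lower edge stand for 0 FPKM. MYC lies above all others in each library, MAX stays between 22.3 and 26.3 FPKM, and the MYC, MXD1 and MXI1 points are lowest in the RL-95-2 mimic library.

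Among the antagonists, MXD1 and MXI1 were lower in the RL-95-2 mimic library and MXD3 was higher. MXD1, which is known to be induced as cells differentiate (chromosome 2, 69897688 to 69942945), stood at 5.10 FPKM with the control and 6.16 with the mimic in HEC-1-A, then 3.39 and 1.31 in RL-95-2. Its RL-95-2 mimic library was the lowest and its HEC-1-A mimic library the highest of the 4. MXD1 was 2.91-fold lower with the mimic in RL-95-2 (log2 ratio -1.53, interval -1.72 to -1.36), and 1.23-fold higher in HEC-1-A (log2 ratio 0.30, interval 0.19 to 0.41).

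MXI1, another MAX partner of the same family (chromosome 10, 110207605 to 110287365), was the most abundant antagonist in 3 of the 4 libraries. Its FPKM was 23.6 with the control and 21.1 with the mimic in HEC-1-A, then 12.7 and 6.18 in RL-95-2. Levels in HEC-1-A were thus above both levels in RL-95-2. With the mimic, MXI1 was 2.27-fold lower in RL-95-2 (log2 ratio -1.18, interval -1.31 to -1.06), and in HEC-1-A its log2 ratio was -0.05 (interval -0.13 to 0.03).

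MXD3, a family member known for its expression in S phase of proliferating cells (chromosome 5, 177301461 to 177312757), went the other way in RL-95-2. Its FPKM was 8.47 with the control and 8.56 with the mimic in HEC-1-A, then 6.23 and 12.8 in RL-95-2. The RL-95-2 libraries held both the lowest and the highest value. MXD3 was 1.99-fold higher with the mimic in RL-95-2 (log2 ratio 0.99, interval 0.84 to 1.16), where it had become the most abundant antagonist, against a log2 ratio of 0.07 (interval -0.09 to 0.22) in HEC-1-A. MXD3 is the uncertain case in the network: 22.5% of its annotated exon bases overlap PRELID1 on the opposite strand and 18.0% overlap RAB24 on its own strand. PRELID1 had 4732 counts in the RL-95-2 control and 7919 in its mimic library, and RAB24 had 1506 and 1153, and the part of shared reads in the MXD3 value was not tested.

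MXD4 and MNT differed mainly between the lines. MXD4 (chromosome 4, 2247432 to 2262294), a further MXD repressor, stood at 5.25 and 3.83 FPKM in the HEC-1-A control and mimic libraries and at 2.53 and 2.49 FPKM in those of RL-95-2. MXD4 had a log2 ratio of -0.42 (interval -0.57 to -0.28) against -0.15 (interval -0.34 to 0.03) in RL-95-2. MNT (chromosome 17, 2384060 to 2401118), a broadly expressed repressor that is known to limit MYC function, stood at 9.08 and 10.2 FPKM in the HEC-1-A control and mimic libraries and at 4.79 and 3.17 FPKM in those of RL-95-2. The MNT groups of the lines did not overlap. Its log2 ratio was 0.20 (interval 0.11 to 0.28) in HEC-1-A against -0.72 (interval -0.86 to -0.59) in RL-95-2.

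MGA, a very large protein that pairs with MAX inside a variant Polycomb complex (chromosome 15, 41621224 to 41773081), differed little in RL-95-2. MGA stood at 5.37 FPKM with the control and 4.32 with the mimic in HEC-1-A, then 3.80 and 4.54 in RL-95-2, so the libraries of the lines overlapped. Its log2 ratios were -0.18 (interval -0.27 to -0.10) in HEC-1-A against 0.12 (interval 0.04 to 0.21) in RL-95-2.

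Upstream sequences of antagonists are shown because MAX dimers bind the E-box CACGTG. They are those of MNT and MXD4, the members with a match, and of MXD1 and MXD3. Those of MXI1 and MGA, which had no E-box match, are not printed. RefSeq windows (GRCh38.p14) were matched by symbol for 9 of the 10 members, with 14 windows in all. The set of windows used here held none of MYC, so the motif matches do not cover MYC. The 250 bases before the start site are printed 5′ to 3′ on the gene's strand, with E-box matches in capitals. They lie at chr17:2401061-2401310 for MNT, chr4:2262110-2262359 for MXD4 and chr5:177312753-177313002 for MXD3, all on the minus strand, and at chr2:69914859-69915108 for MXD1 on the plus strand.
MNT: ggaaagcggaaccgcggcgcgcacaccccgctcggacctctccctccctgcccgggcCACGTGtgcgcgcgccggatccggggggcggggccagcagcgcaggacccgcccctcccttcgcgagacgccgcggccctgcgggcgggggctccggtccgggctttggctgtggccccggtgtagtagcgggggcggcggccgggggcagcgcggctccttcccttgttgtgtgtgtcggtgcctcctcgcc
MXD4: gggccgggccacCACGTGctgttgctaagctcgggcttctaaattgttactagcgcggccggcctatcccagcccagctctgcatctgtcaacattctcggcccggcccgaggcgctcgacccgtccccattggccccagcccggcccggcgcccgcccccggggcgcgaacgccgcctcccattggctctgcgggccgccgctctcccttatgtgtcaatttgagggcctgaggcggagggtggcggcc
MXD1: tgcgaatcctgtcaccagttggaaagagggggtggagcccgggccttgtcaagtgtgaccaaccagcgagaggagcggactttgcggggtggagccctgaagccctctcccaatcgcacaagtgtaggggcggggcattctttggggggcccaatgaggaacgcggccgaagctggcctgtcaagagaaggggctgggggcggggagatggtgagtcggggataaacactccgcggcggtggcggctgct
MXD3: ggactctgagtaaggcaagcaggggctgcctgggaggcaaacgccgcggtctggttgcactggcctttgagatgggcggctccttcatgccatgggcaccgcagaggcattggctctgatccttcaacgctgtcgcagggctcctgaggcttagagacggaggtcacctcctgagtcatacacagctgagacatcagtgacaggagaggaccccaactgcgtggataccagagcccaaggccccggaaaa
The E-box, which reads the same on both strands, matched in 1 MNT window and 1 MXD4 window and in none of the other 12, against 7.26% of 35116 RefSeq windows of the same 300 bases. Counted from the start site, its first base lay at -193 in MNT and at -238 in MXD4. MNT and MXD4, the members with a match, had log2 ratios of -0.72 and -0.15 in RL-95-2, and of 0.20 and -0.42 in HEC-1-A. Any relation between a match and these ratios was not tested.

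Other motifs were searched on both strands of the same windows. An AP-1 site (TGANTCA, in 7.71% of all windows) matched once, at -79 in MXD3. E2F sites (TTTGGCGC, TTTCCCGC, TTTCGCGC or TTTGCCGC, in 3.31% of all windows) matched in the MYCN window and in 1 of 3 MGA windows. The cyclic AMP response element (TGACGTCA, 1.85% of all windows) and an amino acid response element core (TGATGNAA, 3.62%) matched in none of the 14. The hypoxia response element core (ACGTG or GCGTG, 48.4% of all windows) is contained in the E-box and matched in windows of MYCL, MAX, MXD3, MXD4, MXI1, MNT and MGA. A match describes letters in a window and not binding.

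Set side by side within a line, 3 of the 9 members with a mean of at least 1 CPM were at least 2-fold lower with the mimic in RL-95-2, against 6.44% of all genes so measured, and 0 were at least 2-fold higher, against 4.8%. The members lower were MYC, MXD1 and MXI1. MYCL at -0.98 and MXD3 at 0.99 lay just inside the 2-fold line. MXD3 crossed it when scaled by library total (1.12) and MYCL with RLE size factors (-1.01), while on log2(FPKM + 1) only MYC stayed past it, with MXD1 and MXI1 at -0.93 each. The median log2 ratio of the 9 was -0.72 in RL-95-2, beside 0.01 for all genes there. In HEC-1-A, 0 of 9 members were at least 2-fold higher, against 0.871% of genes, and 0 lower, against 0.239%, with a median of -0.03 beside 0.02 for all genes. No test stands behind these ratios.

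**Figure D2:**
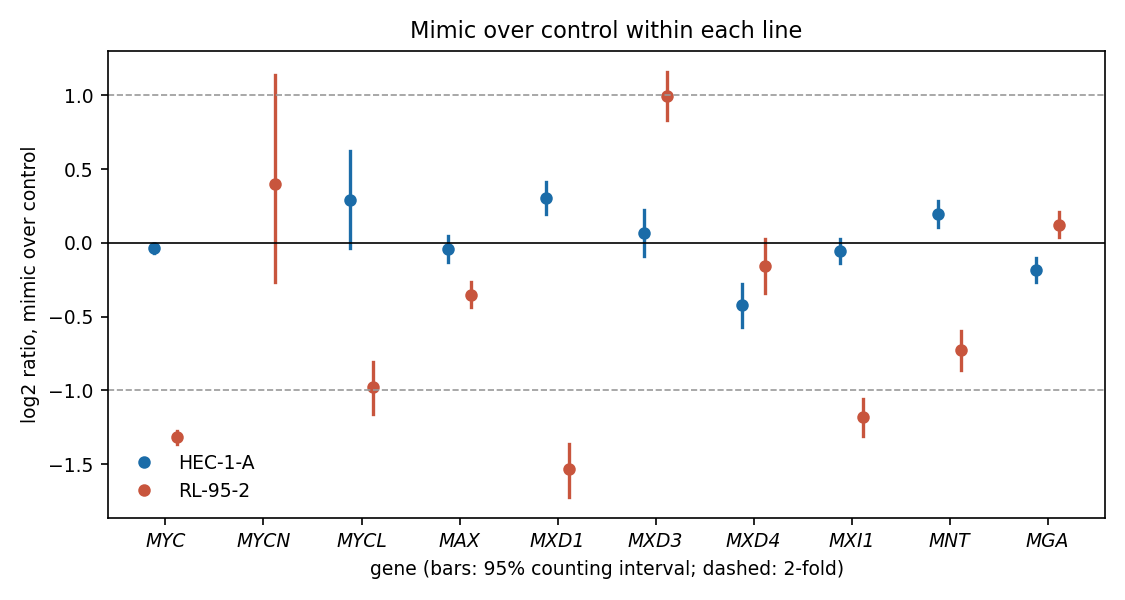
Log2 ratio of mimic over control for each network gene, in HEC-1-A (blue) and RL-95-2 (red), on TMM-scaled CPM with bars for the exact 95% counting interval and dashed lines at 2-fold. MYC, MXD1 and MXI1 lie under the lower dashed line in RL-95-2, MXD3 lies at the upper one, and all HEC-1-A points lie between -0.42 and 0.30.

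Over both lines no member was called. The edgeR quasi-likelihood test with the line as a block called 0.0% of 15957 genes, with 167 at an unadjusted p under 0.05, and 0 of 10 members passed. MYC had a log2 fold change of -0.68 (SE 0.37, n = 2 per transfection, unadjusted p = 0.11), MXI1 -0.62 (SE 0.32, unadjusted p = 0.10) and MXD1 -0.61 (SE 0.46, unadjusted p = 0.23) in the same edgeR fit, and MXD3 had 0.53 (SE 0.33, unadjusted p = 0.16). The edgeR adjusted p was 0.9999 for each member. MYC, MAX, MXD4 and MXI1 had ratios below 0 in both lines, and MXD3 was above 0 in both. In HEC-1-A, however, MYC stood at -0.03, and the counting intervals of MAX, MXI1 and MXD3 spanned 0. The interval of MXD4 spanned 0 in RL-95-2. A shared sign is thus no evidence of a like difference in both lines. MYCL, MXD1, MNT and MGA had opposite signs, and MYCN had counts in RL-95-2 alone. DESeq2, limma-voom and the fit without the line block called 0 members as well.

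Between the lines 6 of 10 members were called by edgeR at an adjusted p under 0.05, against 35.1% of all genes tested. Lower in RL-95-2 were MYC, MXD1, MXI1 and MNT, or 4 of 10 against 16.7% of genes, and higher were MYCL and MYCN, or 2 of 10 against 18.3%. MNT had a log2 fold change of -1.36 (SE 0.30, edgeR adjusted p = 0.015) and MXI1 -1.39 (SE 0.33, edgeR adjusted p = 0.019). MYC had -1.21 (SE 0.37, edgeR adjusted p = 0.045), and MXD1 -1.48 (SE 0.46, edgeR adjusted p = 0.049). MYCL had 1.56 (SE 0.44, edgeR adjusted p = 0.034). MYCN had an edgeR adjusted p of 0.012, its size being given above as a bound. It passed the filter only through RL-95-2, the line where it was higher, so its call adds no support. With at least 1 CPM required in all 4 libraries, and in the FPKM fits, MYCN was not tested.

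The remaining members did not pass between the lines. MXD4 at -0.89 (SE 0.28, edgeR adjusted p = 0.050) lay next to the threshold, and 5 of the other fits placed it past it: DESeq2 (adjusted p = 0.047), limma-voom (0.049), RLE size factors (0.048), at least 1 CPM in all 4 libraries (0.044) and no block (0.033). MAX had -0.12 (SE 0.23, edgeR adjusted p = 0.72), MXD3 -0.13 (SE 0.33, edgeR adjusted p = 0.79) and MGA -0.28 (SE 0.23, edgeR adjusted p = 0.38). Calls of MYC, MXD1 and MXI1 were not held by all fits: with no block for the transfection the adjusted p was 0.11 for MYC, 0.095 for MXD1 and 0.051 for MXI1, and MXD1 also missed with RLE size factors (0.054) and limma-voom (0.053).

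The gap between the lines differed with the transfection. In the control libraries, MYC was 1.47-fold lower in RL-95-2 (log2 ratio -0.56), and in the mimic libraries 3.59-fold lower (log2 ratio -1.84). MXD1 had -0.55 and -2.38, MXI1 -0.82 and -1.94, and MNT -0.88 and -1.80 in the control and mimic libraries. For these 4 genes the sign held in both kinds of library, and the size in control libraries was smaller. MYCL went from 2.20 in the control to 0.93 in the mimic libraries. MXD3 changed sign, from -0.58 to 0.34. With 1 library for each line and transfection, this change in the gap could not be tested.

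**Figure D3:**
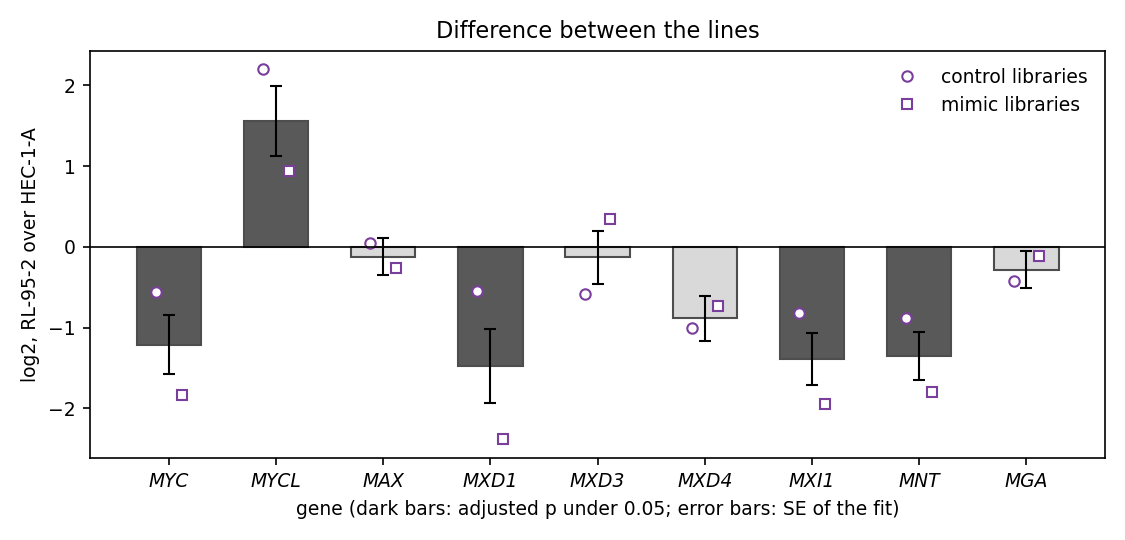
Log2 difference of RL-95-2 over HEC-1-A for 9 network genes, MYCN left out because HEC-1-A had no counts. Bars are edgeR log2 fold changes with SE, dark where the adjusted p is under 0.05, circles are the control libraries alone and squares the mimic libraries alone. Circles and squares lie on the same side of 0 for MYC, MYCL, MXD1, MXD4, MXI1, MNT and MGA, and on opposite sides for MAX and MXD3.

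Ordered by FPKM, MYC, MAX and MXI1 led in the HEC-1-A libraries and in the RL-95-2 control, and MYC, MAX and MXD3 in the RL-95-2 mimic library. In the HEC-1-A control, MNT at 9.08 and MXD3 at 8.47 were neighbours, as were MGA at 5.37, MXD4 at 5.25 and MXD1 at 5.10 FPKM. The mimic library of that line reordered the latter 3, so their order did not hold in both libraries. With 1 library per line and transfection, no spread between cultures was measured for such an order. MYC alone lay above MAX in each library.

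Summed by role, transcripts of the MYC genes exceeded those of the 6 antagonists in every library. The FPKM sum of MYC, MYCN and MYCL was 184 with the control and 176 with the mimic in HEC-1-A, then 126 and 56.9 in RL-95-2. The antagonists summed to 56.9, 54.2, 33.4 and 30.5 FPKM in the same order. The ratio of both sums was therefore 3.23 and 3.25 in HEC-1-A and 3.76 in the RL-95-2 control, but 1.87 in its mimic library, the lowest of the 4. In CPM, which does not divide by length, the same ratios were 1.79, 1.76, 2.05 and 1.04, again lowest in the RL-95-2 mimic library. On FPKM over MAX, the MYC genes stood at 6.997 and 7.67 in HEC-1-A, then 5.06 and 2.56 in the RL-95-2 control and mimic libraries, while the antagonists stood at 2.16, 2.36, 1.35 and 1.37. The like antagonist values within RL-95-2 rested on MXD3, the gene whose exons overlap others. Without MXD3, the other antagonists stood at 1.10 over MAX with the control and 0.79 with the mimic in RL-95-2, and the MYC genes over them at 4.62 and 3.22. These are ratios of transcripts, not of proteins.

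**Figure D4:**
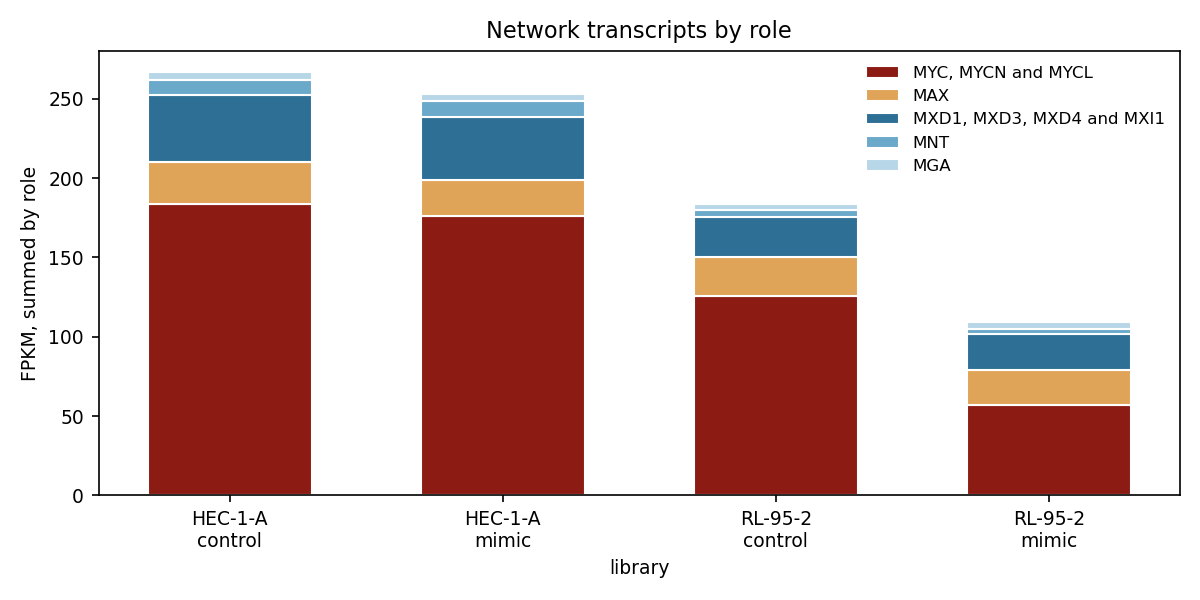
FPKM of the network genes stacked by role in each of the 4 libraries, from MYC genes at the base through MAX to the antagonists. The dark red part is 184, 176, 126 and 56.9 FPKM from left to right, and the orange MAX part stays between 22.3 and 26.3 FPKM.

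The genes most like the members were taken from 10091 genes with at least 5 CPM in each line, by the distance over both log2 ratios and the difference between lines, so over 3 values from 4 libraries. Nearest to MYC were FAM60A (distance 0.084), KRCC1 (0.10) and EIF1 (0.12). Nearest to MXI1 were SNX24 (0.041) and CDC42BPA (0.13), to MXD1 DNMT3B (0.16), CLIP2 (0.27) and VEGFA (0.28), to MNT UBE2E1 (0.083), ETV4 (0.084) and JADE1 (0.11), and to MYCL ETS1 (0.12), GRHL1 (0.20) and PRSS8 (0.21). The distance to the nearest gene was larger for MXD1 than for MYC, MYCL, MXI1 or MNT.

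Other genes of the pathway were counted in 8 lists, chosen with earlier results of these data known. Of their measured genes, 13 of 121 (10.7%) were at least 2-fold apart in RL-95-2, near the 11.2% of all genes there, and 0 of 119 in HEC-1-A, against 1.11%. Over both lines edgeR called none of them. In the parallel MLX arm, a set of MAX-like factors that sense glucose, and their targets, MLX had an RL-95-2 log2 ratio of 0.42 and its partner MLXIP 0.05. The arm's targets TXNIP and ARRDC4, both arrestin-like brakes on glucose uptake, were lower, at -2.91 and -1.23. TXNIP was listed at 0 in both HEC-1-A libraries and had 30784 and 5138 counts in the RL-95-2 control and mimic libraries, and ARRDC4 had -0.10 in HEC-1-A. In all, 2 of 5 genes of this list were at least 2-fold lower in RL-95-2, against 6.44% of all genes, and 0 higher, against 4.8%.

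Among 15 MYC cofactors 0 were at least 2-fold apart in RL-95-2, against 11.2% of all genes, and 0 in HEC-1-A, against 1.11%, too few genes to set the list apart from that share. The list had medians of -0.03 in HEC-1-A against 0.11 in RL-95-2. Toward the ends of the RL-95-2 range were the acetyltransferase gene KAT2A at 0.76 and the helicase gene RUVBL2 at 0.60, and the E-box factor gene TFAP4 at -0.51. In HEC-1-A these 3 had -0.16, -0.25 and -0.09. Of the 11 SIN3 and NCOR corepressor genes, which code for the complexes MXD proteins recruit, 0 were 2-fold apart in either line, beside the same shares of all genes. In RL-95-2, 2 of 11 were above 0, against 50.4% of all genes, and the median of -0.28 became -0.16 with library totals and -0.13 on log2(FPKM + 1). There SIN3A stood at -0.49, HDAC1 at 0.47 and RBBP4 at 0.32. The same 3 had -0.06, 0.03 and -0.22 in HEC-1-A, where the median was 0.01. Partners of MGA in its Polycomb complex had a median of -0.29 in RL-95-2, or -0.14 on log2(FPKM + 1), with 3 of 11 above 0 and 0 at least 2-fold apart. TFDP2 had -0.87 and RING1 -0.47, and L3MBTL2 0.72 and TFDP1 0.47. In HEC-1-A TFDP2 had -0.32, RING1 0.24, L3MBTL2 0.05 and TFDP1 -0.16, with a list median of 0.05.

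Of 16 genes that act on the stability of the MYC protein, 2 were at least 2-fold lower in RL-95-2, against 6.44% of all genes, and 0 higher, against 4.8%. The median was -0.20 in RL-95-2, or -0.05 on log2(FPKM + 1), and -0.03 in HEC-1-A. FBXO32, a ubiquitin ligase subunit known as atrogin, had -2.64, and PIM1, a kinase that stabilises MYC, had -1.97, from 4883 counts in the control to 1572 in the mimic library. In HEC-1-A they had 0.31 and 0.37. SKP2, a ligase subunit that also promotes entry into S phase, had 0.83 in RL-95-2 and -0.27 in HEC-1-A, and STUB1, a chaperone-bound ligase, had 0.41 and -0.12.

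Of the 38 MYC-induced targets, 24 were above 0 and 14 below in RL-95-2, where 50.4% of all genes were above 0 and MYC itself was lower. The median was 0.20 beside 0.01 for all genes. With 2 of 38 at least 2-fold higher, against 4.8% of all genes, and 0 lower, against 6.44%, the count of higher genes lay near the background. Highest were the mitochondrial chaperonin gene HSPE1 at 1.56 and the prohibitin gene PHB at 1.01, which had -0.01 and -0.06 in HEC-1-A. Lowest were SHMT2, a serine and one-carbon enzyme, at -0.85, and the cyclin gene CCND2 at -0.78, with SHMT2 at -0.15 in HEC-1-A and CCND2 at 2 counts in each HEC-1-A library. ODC1, a classic direct target in polyamine synthesis chosen for naming after its values were seen, had -0.01 in RL-95-2. The HEC-1-A median of the list was -0.01 with 16 of 37 above 0. Scaling by library total raised the RL-95-2 median to 0.32.

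Of 10 measured targets that MYC is known to repress, 6 were at least 2-fold lower with the mimic in RL-95-2, against 6.44% of all genes, and 0 higher, against 4.8%, while 3 of the 10 were above 0. The median was -1.54, or -0.99 on log2(FPKM + 1), and no test stands behind it. The list was chosen with earlier results of these data known, so the share of all genes is no independent yardstick for it. The lower genes were led by NDRG1, a stress- and hypoxia-responsive gene, at -3.23, and the cell cycle inhibitor gene CDKN1A at -2.58. CDKN1A counts were 4406 with the control and 924 with the mimic in RL-95-2. TSC2, a brake on mTOR, had 0.36 and NDRG2 0.33. In HEC-1-A 9 of 11 were above 0 with a median of 0.39, CDKN1A at 0.84, NDRG1 at 0.33, NDRG2 at 0.58 and TSC2 at -0.21.

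Genes that code for regulators of MYC transcription had medians of -0.02 in HEC-1-A against -0.01 in RL-95-2, the latter turning to 0.11 with library totals and 0.07 on log2(FPKM + 1). E2F1, which drives S phase entry, was the 1 gene of 15 at least 2-fold apart, against 11.2% of all genes, at 1.11 in RL-95-2 (1048 and 2853 counts) and -0.00 in HEC-1-A. PUF60, a repressor of MYC, had 0.78, and the signal-driven activator genes STAT3 and NOTCH1 had -0.53 and -0.48, against -0.04, 0.22 and -0.17 in HEC-1-A.

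**Figure D5:**
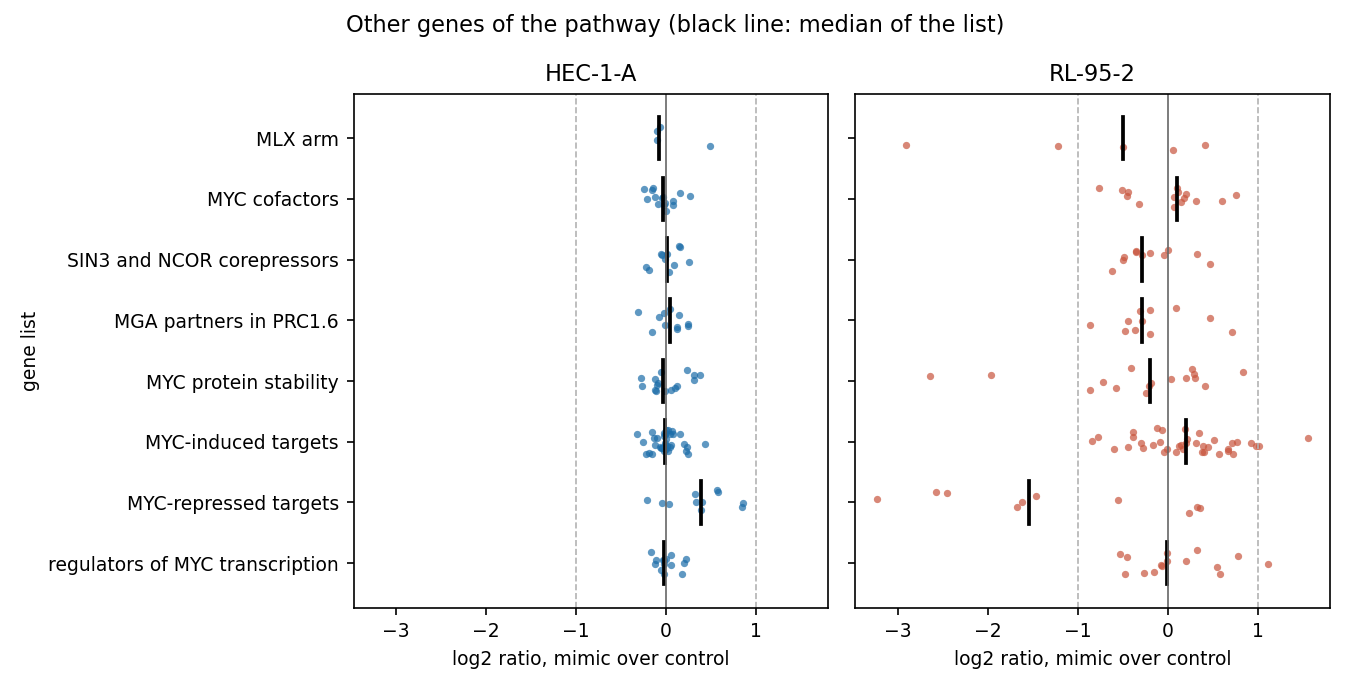
Log2 ratio of mimic over control in 8 lists of the pathway, HEC-1-A on the left and RL-95-2 on the right, with a black line at each list's median and dashed lines at 2-fold. The MYC-repressed targets reach from 0.36 down to -3.23 in RL-95-2 around a median of -1.54, and the MYC-induced targets lie around 0.20.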

How the data were processed

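Poly(A) RNA of 4 libraries was sequenced. For every library the authors deposited a table column of raw counts and one of FPKM. HISAT2, CASAVA and GRCh38 (hg38) were used, per the submitters' processing notes. Of the counter, the annotation and the strandedness, each is not given in the sources used here. FPKM divides by a transcript length that the files do not hold, and FPKM ratios differed from count ratios for some genes.

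The test was edgeR's quasi-likelihood F test (version 4.0.16, R 4.3.3) on TMM-scaled counts that passed filterByExpr, with Benjamini-Hochberg adjustment at 0.05 over all genes. The model held line and transfection and left 1 residual degree of freedom, moderated with 5.44 prior degrees of freedom. Libraries were paired by the line in their labels. Libraries of a line deviated together from their group means (correlation 0.906 over 17568 genes). With 2 libraries per transfection, this value reflects the difference between the lines and is no separate support for the pairing. Whether separate cultures were used is not stated in the labels. Because line and transfection were crossed without replicates, the 1 residual degree of freedom held the difference between the lines in their mimic ratios. The p-values of this model, for the mimic and for the line, were thus measured against that moderated difference. No spread of replicates entered them, and a technical part of the difference cannot be told apart. Within a line, log2 ratios used a prior count of 2. A gene counted as apart at 2-fold, if its 2 libraries averaged 1 CPM or more. The test was also run on counts simulated from its own fit, in which both lines had the same response to the mimic. That run does not show how the test performs where the lines respond differently.

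All members were named, and of each list the 2 highest and 2 lowest RL-95-2 ratios among genes averaging 5 CPM or more. Some genes that this rule or the likeness to a member picked are not reported here. The members and lists were chosen with earlier results of these data known. Alternatives were DESeq2 1.42.0, limma 3.58.1 (voom, and on log2 FPKM with 1 or 0.1 added), other scalings, filters and prior counts, no block, and left-out libraries.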

Additional observations from a re-analysis of the deposited data

Results flagged for a closer look

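MXD1, MNT and MGA had log2 ratios of mimic over control on opposite sides of 0 in both lines, with counting intervals that did not reach 0. MXD1 had 0.30 in HEC-1-A against -1.53 in RL-95-2. MNT had 0.20 in HEC-1-A against -0.72 in RL-95-2. MGA had -0.18 in HEC-1-A against 0.12 in RL-95-2. Each line gave 1 library per transfection, and the difference between the lines was not tested.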

How the results depend on the processing

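Over both lines, the number of genes called was 0 with edgeR, 2 with DESeq2 (PPAN-P2RY11 and SCHIP1-1), 1 with limma on log2(FPKM + 1) (PPAN-P2RY11) and 3 on log2(FPKM + 0.1) (those 2 and RP11-762I7.5), all named after their values were seen. No member was called in any of these fits. With no replicate block, 0 genes were called over both lines, and between the lines 6646 in place of 5594, with 4 members in place of 6. Between the lines 3344 genes were called with at least 1 CPM in all 4 libraries. The number of genes at least 2-fold apart, 144 in HEC-1-A against 1478 in RL-95-2, was 26 and 727 on log2(FPKM + 1), 29 and 942 with a minimum of 5 CPM, and 1866 and 3521 with no minimum. The share of higher genes among those apart in HEC-1-A was 78.5%, and 62.1% with a minimum of 5 CPM. The ratio of MYC genes to antagonists in CPM was 1.79 and 1.76 in the HEC-1-A control and mimic libraries and 2.05 and 1.04 in those of RL-95-2. MGA over both lines turned from -0.03 to 0.022 with library totals, and MXD3 between lines from -0.13 to 0.069 on log2(FPKM + 1) and 0.068 on log2(FPKM + 0.1), and none of these was called; the cause was not tested. Of 95 alternative values of member ratios within a line, 74 stayed within the counting interval. Low counts limit MYCN and, in HEC-1-A, MYCL.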

Other observations

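Some listed genes also differed between the lines, where edgeR called 18.3% of all genes higher in RL-95-2 and 16.7% lower. Of the MYC-induced targets, 5 of 38 were called higher and 2 lower. Of the MYC-repressed targets, 2 of 11 were called higher and 1 lower. Of the genes of MYC protein stability, 2 of 16 were called higher and 0 lower. Of the regulators of MYC transcription, 5 of 15 were called higher and 3 lower. CCND2, the cyclin D2 gene, had 2 counts in each HEC-1-A library and 37063 and 27249 in the RL-95-2 control and mimic libraries. This gene, one of the MYC-induced targets, passed the filter only through RL-95-2, so a call of it adds no support to that list's count. NDRG2 had an edgeR log2 fold change of 4.22 for RL-95-2 over HEC-1-A (SE 0.29, adjusted p = 1.6e-04). KLF6, a zinc finger factor of stress and growth signals, had -2.32 (SE 0.52, edgeR adjusted p = 0.016). The rule for naming list genes did not pick KLF6, which was named after its values were seen. SKP2 had 1.39 (SE 0.32, adjusted p = 0.018) in the same edgeR fit.

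PPAN, a ribosome assembly gene on the list of MYC-induced targets, shares its locus with the read-through feature PPAN-P2RY11. That feature had 217 and 398 counts in the HEC-1-A and RL-95-2 control libraries and 0 in both mimic libraries, while SCHIP1-1 was at 0 with the control in each line and at 154 and 239 counts with the mimic in HEC-1-A and RL-95-2. PPAN itself had 1019 and 1539 counts in the HEC-1-A control and mimic libraries and 1968 and 3657 in those of RL-95-2, and its values are uncertain for this reason. RP11-762I7.5 was also at 0 with the control in each line, and at 71 and 125 counts with the mimic in HEC-1-A and RL-95-2. Whether reads were assigned to features differently in mimic and control libraries was not tested. Such a difference could not be told apart from the transfection in any ratio of mimic over control, those of the members among them.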
